A study of Mus musculus with 4 samples.

Results

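The potassium channel genes measured here were all those whose symbol begins with Kcn, the prefix of the genes for potassium-selective channels and their accessory subunits. Kcnj13, Kcne2 and Kcnj8 were left out by name. They were represented by 164 of the 45037 probe sets of the array, and belonged to 81 genes, of which 3 are antisense transcripts named after a channel gene and not channels. A probe set is a group of short probes against 1 transcript, read out as 1 signal. Hippocampi of mouse pups at postnatal day 2 were compared between animals labelled knockout for Zbtb20, a zinc finger transcription factor gene, and littermates labelled wild type, called control below. Each group had 2 arrays, numbered replicate 1 and replicate 2. The labels do not give the allele, the cells in which the gene was deleted, the strain, or the number of animals behind an array, so the spread between arrays may be technical. They name no build and no probe positions, and the submitters' processing notes name MAS5.

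Potassium channels let potassium leave the cell along its gradient. Voltage-gated members repolarise the action potential and set firing patterns, inward rectifiers and tandem-pore leak channels set the resting potential, and calcium-activated members link firing to intracellular calcium. In the hippocampus, A-type channels built from Kcnd2 with Kcnip and Dpp subunits damp dendritic excitation in pyramidal cells, and M-type channels of the Kcnq family restrain repetitive firing. Many of these currents mature in the weeks after birth.

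Both replicate numbers lay on their own scale, with a trimmed mean signal of 497 and 498 on the knockout-labelled and control-labelled array of replicate 1, and of 156 and 158 on those of replicate 2. Means and SDs over both arrays of a group would mix the scales, so the signal of every array is given, and differences are taken within a pair as the knockout-labelled array minus the control-labelled array on the scale log2(signal + 32.56), where 32.56 was the 20th percentile of all values. Pair 1 is replicate 1 and pair 2 is replicate 2. This scale understates changes of dim probe sets, and does so unequally in the pairs. The median signal was 130 and 142 on the knockout-labelled and control-labelled array of replicate 1, and 75.8 and 73.8 on those of replicate 2. At the 20th percentile the order was reversed, with 23.8 and 27.7 in replicate 1 and 35.7 and 35 in replicate 2. Sizes of differences and counts past a fold are therefore not directly comparable between the pairs. Such a difference rests on a single array of each label and has no replicate check. Of the 9 probe sets of Zbtb20, 0 were lower in the knockout-labelled array in both pairs, and 1443471_at had 2412 and 592 on the knockout-labelled arrays against 4939 and 284 on the control-labelled ones. At that probe set the targeted gene went against the labels in pair 2. In pair 1, only 1443471_at (-1.02), 1439128_at (-0.42) and 1438443_at (-0.16) were lower in the knockout-labelled array. In pair 2, only 1437066_at (-0.18) and 1439278_at (-0.007) were lower there. The other Zbtb20 probe sets were higher in the knockout-labelled array, so most went against the labels in each pair. Every direction here rests on the labels. The 11 measured hippocampal marker genes of 12 listed had median differences of 0.07 and 0.06. All 4 arrays carried them, with Neurod6, a transcription factor of glutamatergic pyramidal neurons, at 7349 and 1745 against 6997 and 1498. The replicate 1 arrays also carried liver transcripts, with albumin (Alb) at 15195 on the knockout-labelled array and 39309 on the control-labelled one, against 45.2 and 42.2 on the replicate 2 arrays. Of 19 liver genes 16 were measured, with median differences of -1.94 and 0.01. Without Ttr, which the choroid plexus also expresses, the summed signals of the other 15 were 22346 and 739 on the knockout-labelled arrays against 65928 and 737 on the control-labelled ones. Ttr itself had 74106 and 9232 against 62551 and 3505. The part of this RNA in the potassium channel values was not tested. In bulk tissue, fewer cells of a type and less RNA per cell cannot be told apart.

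Kcnd2 differed by more than 1.5-fold within each pair at 3 probe sets, in opposite directions. It encodes the pore-forming subunit of the main somatodendritic A-type channel. Kcne1l, a Kcne1-like accessory subunit gene, had the same pattern at the pseudocount used here. The RefSeq promoter stretches of these genes on GRCm38.p6 are printed 5′ to 3′ because these genes differed by more than 1.5-fold within each pair. Each covers the 250 bases before the start, at chr6:21215096-21215345 on the plus strand for Kcnd2 and at chrX:142306199-142306448 on the minus strand for Kcne1l. Capitals mark the GC box GGGCGG, or CCGCCC where it lies on the other strand.
Kcnd2: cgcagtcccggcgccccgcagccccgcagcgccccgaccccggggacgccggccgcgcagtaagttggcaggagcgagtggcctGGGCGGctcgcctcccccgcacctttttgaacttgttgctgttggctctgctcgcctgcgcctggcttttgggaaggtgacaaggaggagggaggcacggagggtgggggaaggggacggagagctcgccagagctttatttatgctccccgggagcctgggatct
Kcne1l: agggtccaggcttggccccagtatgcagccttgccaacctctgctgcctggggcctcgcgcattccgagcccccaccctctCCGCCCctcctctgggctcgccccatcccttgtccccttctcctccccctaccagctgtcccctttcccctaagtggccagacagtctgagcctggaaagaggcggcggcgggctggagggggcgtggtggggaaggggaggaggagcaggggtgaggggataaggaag
Each stretch held 1 GC box, and their GC content was 68.8% and 68%, against a median of 52.4% over all 32851 promoters of the table. Neither held the TATA box TATAAA on either strand. A match or its lack describes these letters only.

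Of the 4 Kcnd2 probe sets, 3 passed the brightness filter, which kept probe sets with a mean over the 4 arrays above the 40th percentile. Probe set 1422835_at had signals of 3581 and 868 on the knockout-labelled arrays (replicate 1, then replicate 2), against 2102 and 1425 on the control-labelled ones. For 1450773_at the signals were 1469 and 311 against 832 and 517, and for 1422834_at they were 637 and 404 against 298 and 798. In all 3 the knockout-labelled array was the higher one of replicate 1 and the lower one of replicate 2. The differences were log2 0.76, 0.80 and 1.02 in pair 1 and -0.69, -0.68 and -0.93 in pair 2. As ratios of signals, 1422834_at stood at 2.13 in pair 1 and 0.506 in pair 2. The remaining probe set, 1447764_at, was dim throughout, at 1.7 and 38.8 against 2.9 and 37.2. Kcne1l, with 1 probe set, had 425 and 48.7 on the knockout-labelled arrays against 255 and 101 on the control-labelled ones, a difference of 0.67 in pair 1 and -0.72 in pair 2. In pair 2 these signals stood at the 32.2 and 60.8 percentile of their arrays.

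**Figure D1:**
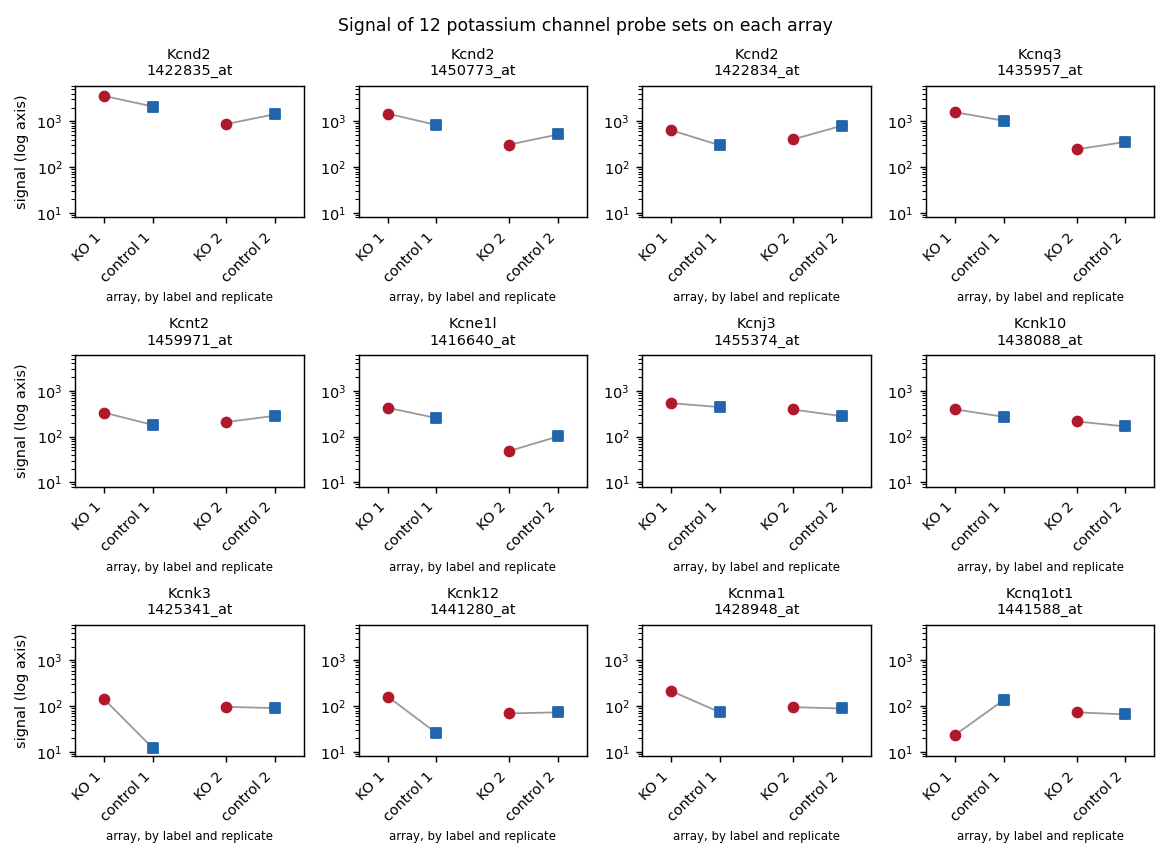
Signal (log axis) of 12 potassium channel probe sets on the 4 arrays, with the knockout-labelled array (KO, red circles) left of the control-labelled array (blue squares) in each replicate. Kcnd2, Kcnq3, Kcnt2 and Kcne1l slope one way in replicate 1 and the other way in replicate 2, while Kcnk3, Kcnk12, Kcnma1 and Kcnq1ot1 differ in replicate 1 by over 2-fold and lie close together in replicate 2.

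Among the 106 potassium channel probe sets above the filter, 4 were over 1.5-fold higher in pair 1 and over 1.5-fold lower in pair 2, and 3 of these belong to Kcnd2. Over all 27022 probe sets above the filter 0.574% did so. With 1 probe set per gene, the count was 2 of 61 potassium channel genes, against 0.747% of 12581 genes, so that it rests on Kcnd2 and Kcne1l alone. With the pseudocount at the 40th percentile Kcne1l was at -0.55 in pair 2, short of 1.5-fold, which left Kcnd2 as the 1 gene. The reverse, over 1.5-fold lower in pair 1 and higher in pair 2, held for 0 of 106, against 0.463% of all probe sets. A change over 1.5-fold in the same direction in both pairs was also found in 0 of 106, against 0.0481%. Opposite and same directions here depend on the labels of both pairs. Were the labels of 1 pair exchanged, the 4 Kcnd2 and Kcne1l probe sets would count as changed in the same direction. This threshold was chosen after the data were seen.

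Over all 4 arrays, no potassium channel gene was called different between knockout-labelled and control-labelled arrays. In limma's fit without the replicate block 0 of 106 probe sets had an adjusted p under 0.05, against 0% of all 27022. There 0 of 106 had an unadjusted p under 0.05, against 5 of 27022. This fit held no term for the replicate number, so the gap in scale between the replicates entered its spread. For Kcnd2 1422835_at the SE was 1.80 without the block and 0.32 with it. The lack of calls in that fit therefore says little about changes alike in both pairs. In the fit with the replicate block, limma called 0 of 106, against 0% of all, and again 0 of 106 were under an unadjusted p of 0.05, against 330 of 27022. The smallest adjusted p was 1 without the block and 0.9999 with it. The nearest to a difference without the block was Kcnk3 1425341_at, at log2 1.02 ± 0.60 (SE, n = 2 per group, limma adjusted p = 1), and with the block Kcnk10 1438088_at, at 0.40 ± 0.18 (limma adjusted p = 0.9999). That Kcnk3 probe set passed the brightness filter only through its high replicate 1 array, as given below. As a group the potassium channel probe sets were centred near 0. Their median difference was -0.03 in pair 1 and 0.04 in pair 2, against -0.02 and 0.02 over all probe sets. In pair 1, 51 were higher (48.1%) and 55 lower in the knockout-labelled array, against 47.9% and 52.1% of all probe sets. In pair 2, 66 were higher (62.3%) and 40 lower, against 55.1% and 44.9% of all. Signs were opposite in the pairs for 59 of 106, against 53.8% of all. Of the 106, 22 (20.8%) had the higher signal on the knockout-labelled array in pair 1 alone, against 23.3% of all. In pair 2 alone it was 37 of 106 (34.9%), against 30.5% of all.

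**Figure D2:**
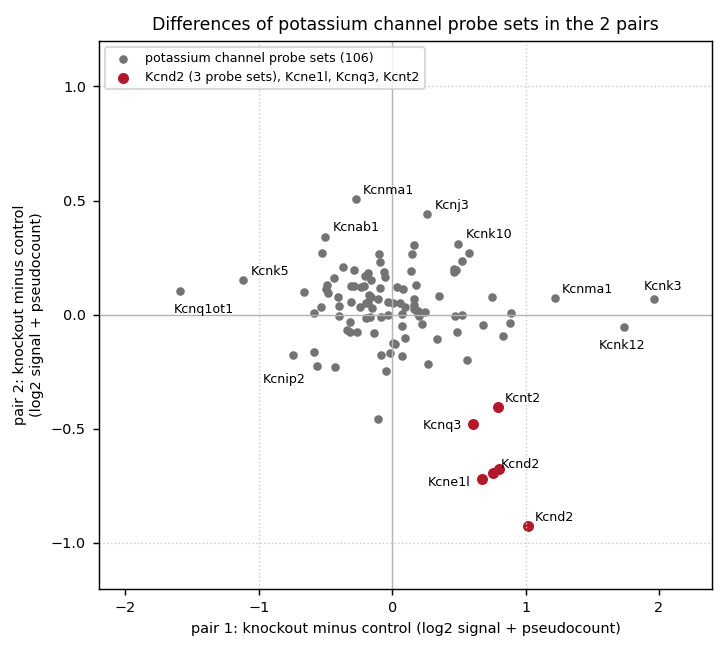
Difference of each of the 106 potassium channel probe sets above the filter in pair 1 (x axis) and pair 2 (y axis), as log2(signal + pseudocount) of the knockout-labelled array minus the control-labelled one. Dotted lines mark 2-fold. Kcnd2, Kcne1l, Kcnq3 and Kcnt2 (red) lie to the lower right, and the 5 grey points past 2-fold in pair 1 have pair 2 values between -0.06 and 0.15.

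The other A-type channel genes of the Kcnd family did not reach 1.5-fold in pair 2. Kcnd3, a further A-type pore subunit, had 3 probe sets above the filter, all lower in pair 1 (-0.37 to -0.06) and higher in pair 2 (0.04 to 0.21). Its brightest, 1435720_at, had 1456 and 366 on the knockout-labelled arrays against 1519 and 318 on the control-labelled ones. Kcnd1 had values of -0.16 and 0.68 in pair 1 and of -0.01 and -0.04 in pair 2 at its 2 probe sets.

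The calcium-binding Kcnip subunits assemble with Kcnd channels and set their surface level and kinetics. Kcnip1 1448459_at had 676 and 283 on the knockout-labelled arrays against 848 and 271 on the control-labelled ones, and all 3 probe sets of this gene above the filter had negative differences in pair 1 (-0.59 to -0.18) and positive ones in pair 2 (0.01 to 0.08). Kcnip2 1436275_at was lower in both pairs, with 624 and 140 against 936 and 169, or -0.56 and -0.23, while 1425870_a_at of the same gene was at 0.34 and -0.11. Kcnip3 was at 0.75 and -0.43 in pair 1 with its 2 probe sets, and at 0.08 and 0.16 in pair 2. Kcnip4 lay between 0.04 and 0.88 in pair 1 and between -0.03 and 0.27 in pair 2, with 1450370_a_at at 164 and 81.8 against 99.1 and 62.2. Their membrane partners gave small values, with Dpp6 at -0.13 and 0.18 and Dpp10 at 0.06 and 0.07.

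Some lists of marker genes, of neurons and regions among others, also had opposite directions in the pairs, though 0 of their genes passed limma's test. Of 14 synaptic and neuronal maturation genes, 12 were measured and 9 of these were on the higher side in pair 1 alone, against 23.3% of all probe sets (medians 0.25 and -0.30), with summed signals of 47642 and 10720 on the knockout-labelled arrays and 45645 and 11721 on the control-labelled ones. Of 11 GABAergic interneuron genes, 10 were measured and 9 were on that side (medians 0.28 and -0.94), with sums of 15175 and 2650 against 11679 and 4900. Of 9 markers of subiculum and retrosplenial cortex, 8 were measured and 6 were on the higher side in pair 2 alone, against 30.5% of all (medians -0.51 and 0.48), with sums of 15492 and 9510 against 37165 and 3289. Of the 11 measured cell cycle genes, 8 were on the higher side in pair 2 alone, against 30.5% of all (medians -0.29 and 0.17). Of 8 genes of ependyma and motile cilia, 5 were measured. Among these, 4 were on the higher side in pair 1 alone, against 23.3% of all (medians 0.83 and -0.51). Other lists differed. Of 6 choroid plexus genes 1 was on the higher side in pair 2 alone, and of 9 oligodendrocyte lineage genes 0. On the higher side in pair 1 alone were 0 and 2 of them. Measured markers had passed the brightness filter. Some were dim on single arrays, such as Sp8 at 34.1 and the cilia gene Deup1 at 13.3 on the control-labelled array of replicate 1. The part of the cells behind these lists in the Kcnd2 values was not tested.

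Genes of the Kcnq family, whose channels carry the M-current, gave mixed values. Kcnq3 1435957_at had 1586 and 245 on the knockout-labelled arrays against 1031 and 354 on the control-labelled ones, or 0.61 in pair 1 and -0.48 in pair 2, the direction of Kcnd2. The second Kcnq3 probe set, 1458421_at, was dimmer and lower in both pairs, at -0.32 and -0.07. Kcnq5 1457587_at was higher in both pairs, with 682 and 254 against 465 and 211 (0.52 and 0.24). Its other probe sets were at -0.24 and 0.08 in pair 1 and at 0.12 and 0.11 in pair 2, so Kcnq5 was on the higher side at all 3 only in pair 2.

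Shaker-type Kcna genes, which encode low-threshold axonal channels, had small differences. Of 16 probe sets 11 passed the filter, 8 of them lower in pair 1 (52.1% of all probe sets) and 8 higher in pair 2 (55.1% of all). Their ranges were -0.49 to 0.52 and -0.08 to 0.23. Kcna1 1455785_at had 654 and 188 on the knockout-labelled arrays against 731 and 184 on the control-labelled ones. Kcnab1, a cytoplasmic subunit of these channels, had 278 and 128 against 407 and 94.1 at 1448468_a_at (-0.50 and 0.34), and its second probe set was at 0.14 and 0.19. Kcnab2 stayed between -0.18 and 0.10. Of the Kcnc genes, which encode channels for fast spiking, Kcnc2 had 592 and 225 against 513 and 224. Kcnc1 1443855_at had 299.6 and 103 against 325 and 153 (-0.11 and -0.46), whereas both other Kcnc1 probe sets above the filter lay between -0.03 and 0.16. No Kcnb probe set was among the members, so the delayed rectifiers of that family were not analysed here. Of their electrically silent partners, Kcnv1 1439333_at had 238 and 81.3 against 150.2 and 97.9 (0.56 and -0.20). Kcng4, another silent subunit, had 56.9 and 49.6 against 117 and 60.4 (-0.74 and -0.18), and the 7 remaining probe sets of Kcnf1, Kcng1, Kcng2, Kcns1, Kcns2 and Kcns3 lay between -0.48 and 0.16 in pair 1 and between -0.03 and 0.13 in pair 2.

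The ether-a-go-go type genes (Kcnh) did not move together. Kcnh1 was higher in pair 1 at both probe sets (0.49 and 0.83) and near level in pair 2 (-0.07 and -0.09). Kcnh2, the subunit of the rapid delayed rectifier known from the heart, was lower in both pairs, with 311 and 55.5 on the knockout-labelled arrays against 431 and 70.6 on the control-labelled ones (-0.43 and -0.23). Kcnh3, a forebrain subunit, lay between -0.20 and 0.48 in pair 1 and between 0.0021 and 0.19 in pair 2.

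**Figure D3:**
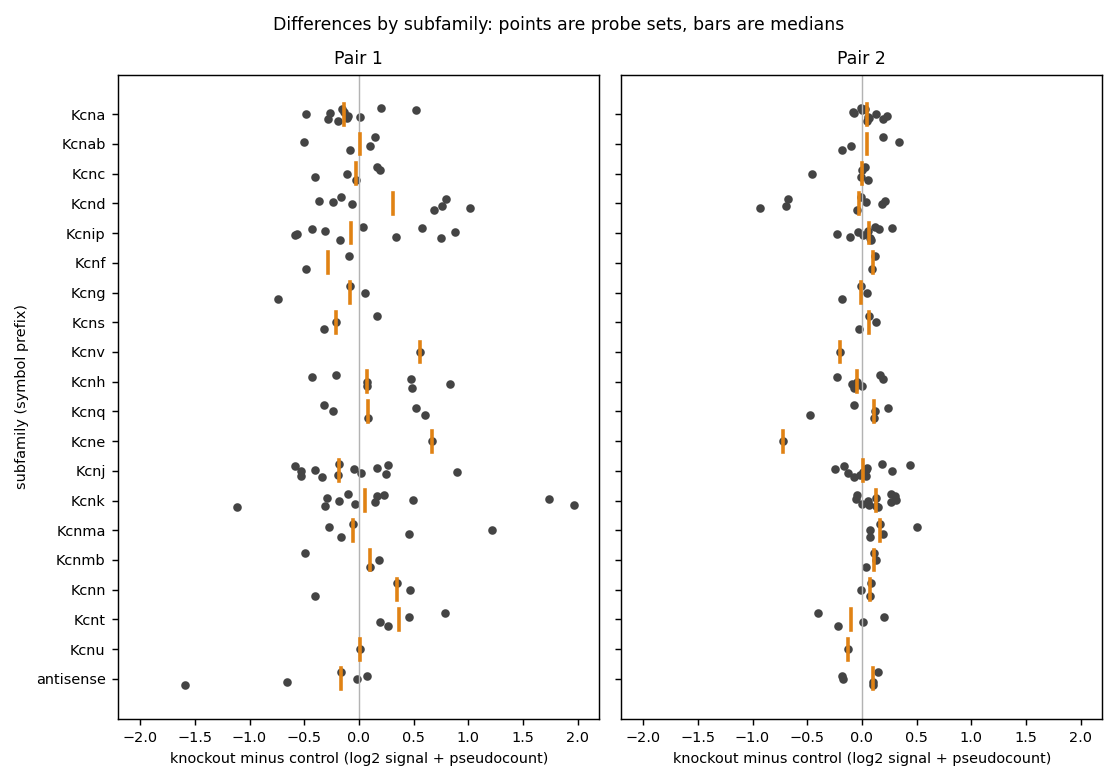
Differences of the 106 probe sets above the filter by subfamily, with the knockout-labelled array minus the control-labelled one in pair 1 (left) and pair 2 (right). Points are probe sets and orange bars are medians. Pair 1 values spread between -1.59 and 1.97 and pair 2 values between -0.93 and 0.51.

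Inward rectifiers (Kcnj) were lower in pair 1 at 8 of the 13 probe sets above the filter, against 52.1% of all, with a median of -0.18, and had a median of 0.01 in pair 2. Kcnj10, the astrocytic channel that clears extracellular potassium, had 520.5 and 543 on the knockout-labelled arrays against 668 and 571 on the control-labelled ones (-0.34 and -0.07). Of 15 astrocyte and radial glia genes 14 were measured, with medians of -0.07 and -0.28 and summed signals of 56156 and 17146 against 57597 and 18869, and their part in the Kcnj10 values was not tested. Kcnj11, the pore of the ATP-sensitive channel, had 467 and 1005 against 534 and 881 (-0.18 and 0.18), and its sulphonylurea receptor partner Abcc8 was at 0.26 and 0.10. Kcnj3 encodes a G protein-gated subunit that mediates slow inhibition. Its probe set 1455374_at was higher in both pairs, with 537 and 392 against 442 and 279.98 (0.26 and 0.44), but the other 3 were lower in pair 1 (-0.53 to -0.40) and at 0.03 to 0.27 in pair 2. Its partner Kcnj6 was at -0.59 and 0.25 in pair 1 and at -0.16 and 0.01 in pair 2, and Kcnj9, of the same class, at -0.04 and -0.25. Kcnj16, a partner of Kcnj10, had 104 and 68.6 on the knockout-labelled arrays against 40.9 and 68.0 on the control-labelled ones at 1436163_at (0.89 and 0.01), while its other probe set above the filter was at 0.02 and -0.13.

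Tandem-pore leak channel genes (Kcnk) were on the higher side in pair 2 at 9 of 12 probe sets above the filter, by at most 0.31, where 55.1% of all probe sets were on that side. Kcnk10, a mechano- and lipid-gated member, was higher in both pairs at both probe sets, with 396 and 215 on the knockout-labelled arrays against 271 and 167 on the control-labelled ones at 1438088_at (0.50 and 0.31) and 331 and 192 against 296 and 154 at 1431613_a_at (0.15 and 0.27). Kcnk1 1448690_at had 1757 and 519 against 1566 and 413 (0.16 and 0.31), and 1455896_a_at was at -0.10 and 0.27. Kcnk2, a close relative of Kcnk10, had 1014 and 553 against 863 and 569.9 (0.23 and -0.04). None of these values passed limma's test.

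Calcium- and sodium-activated channel genes had single wide values beside small ones. Kcnma1, the pore of the large-conductance calcium-activated channel, was higher in pair 2 at all 5 probe sets (0.07 to 0.51), and in pair 1 at 2 of 5 (-0.27 to 1.22). Its brightest, 1425987_a_at, had 818 and 168 on the knockout-labelled arrays against 585 and 143 on the control-labelled ones. Kcnmb4, the neuronal beta subunit of this channel, had 1776 and 483 against 2512 and 444 (-0.49 and 0.11). Kcnn2, which shapes the afterhyperpolarisation, had 688 and 112 against 487 and 112 (0.47 and -0.005). Kcnt2, a sodium-activated channel, had 335 and 208 against 179.6 and 285 (0.79 and -0.40), the direction of Kcnd2 and Kcnq3. Kcnt1, of the same family, was at 0.19 to 0.46 in pair 1 and at -0.21 to 0.20 in pair 2. Kcnu1, known as a channel of sperm, had 422 and 94.5 against 419.5 and 106.

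Differences over 2-fold within a pair were found at 6 probe sets, each of another gene and all in pair 1. In pair 1, 4 of 106 probe sets were over 2-fold higher in the knockout-labelled array, against 1.68% of all, and 2 were over 2-fold lower, against 2.69%. The higher ones included Kcnd2 1422834_at, given above. In pair 2, 0 were over 2-fold higher, against 0.248%, and 0 lower, against 0.27%. Kcnk3 1425341_at, an acid-sensitive leak channel, had 142 and 96.7 on the knockout-labelled arrays against 12 and 90.8 on the control-labelled ones (1.97 and 0.07). Both other Kcnk3 probe sets went the other way in pair 1, with 10.0 against 58.7 at 1425342_a_at and 6.5 against 84.8 at 1426058_a_at (-1.10 and -1.59), and lay below the filter. Kcnk12, an electrically silent tandem-pore member, had 1 probe set, with 162 and 69.4 against 25.7 and 73.4 (1.74 and -0.06). Kcnma1 1428948_at had 214 and 95.2 against 73.3 and 89.0 (1.22 and 0.07), whereas its 4 other probe sets lay between -0.27 and 0.46 in pair 1. On the lower side, Kcnk5 1421852_at had 40.6 and 84.3 against 126 and 72.7 (-1.12 and 0.15), and the second Kcnk5 probe set, below the filter, was at 0.49 and 0.12. The antisense transcript Kcnq1ot1, a noncoding RNA of an imprinted domain, had 23.4 and 73.4 against 136 and 66.1 at 1441588_at (-1.59 and 0.10), while 1457781_at of the same transcript had 952 and 171 against 904 and 198 (0.07 and -0.18) and 1442029_at had 59.8 and 152 against 113 and 139.9 (-0.66 and 0.10). In these 5 cases the lower signal of replicate 1 lay between the 11.6 and the 35.7 percentile of its array. The brightness filter lay at a mean of 6.63 on the log2 scale. Kcnk3 1425341_at, Kcnk12, Kcnk5 1421852_at and Kcnq1ot1 1441588_at lay just above it, at 6.72, 6.72, 6.77 and 6.64. Each of them passed only through the higher array of replicate 1, so the count past 2-fold depends on the filter. As plain ratios of signals, without the pseudocount, further probe sets above the filter were past 2-fold. These were Kcnj16 1436163_at (2.54) and Kcng4 1428536_at (0.487) in pair 1, and Kcne1l 1416640_at (0.481) in pair 2.

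**Figure D4:**
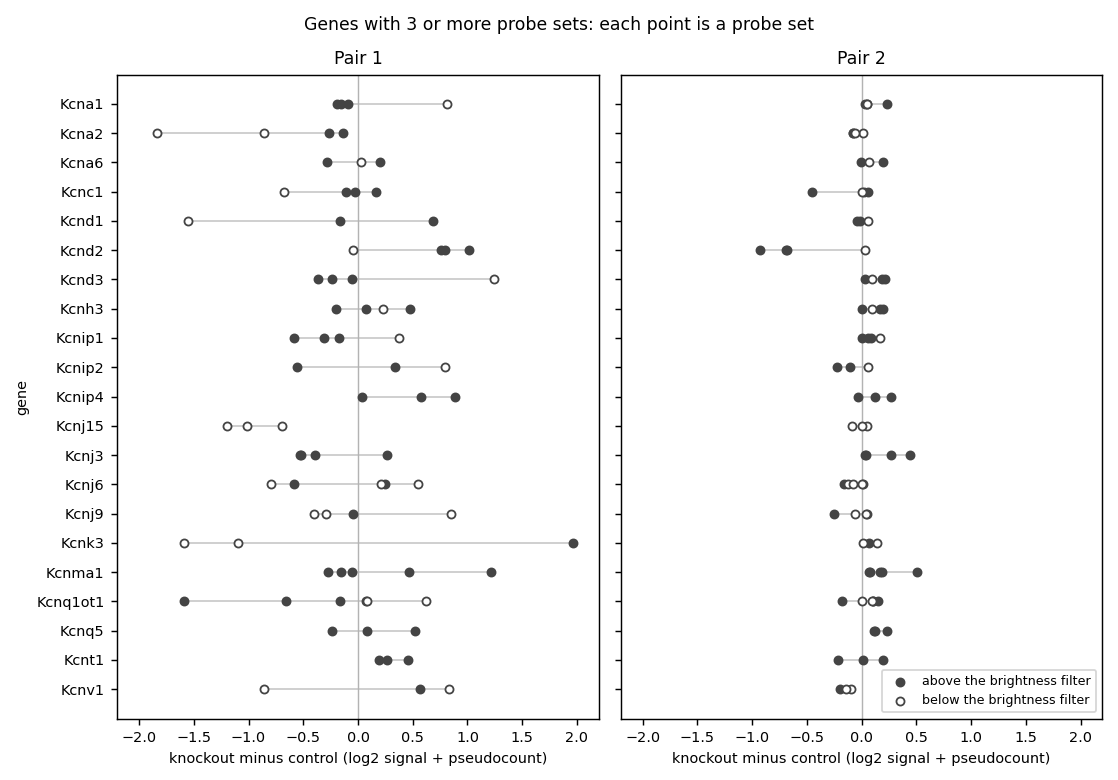
Differences of all probe sets of the 21 genes with 3 or more, as the knockout-labelled array minus the control-labelled one in pair 1 (left) and pair 2 (right). Filled points passed the brightness filter and open points did not. The 3 Kcnd2 probe sets above the filter cluster at 0.76 to 1.02 and at -0.93 to -0.68, while those of Kcnk3 span -1.59 to 1.97 in pair 1.

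Where a gene had several probe sets, they did not always lie on 1 side. Of 29 potassium channel genes with 2 or more probe sets above the filter, 13 (44.8%) had them all on 1 side in pair 1, and 22 (75.9%) did in pair 2. Over all 5962 genes with 2 or more such probe sets the shares were 43.6% and 59.0%. All probe sets had opposite signs in the pairs for 7 of the 29 genes (24.1%), against 17.8% of all genes. For Kcnd2 and Kcnh1 the positive difference was that of pair 1, and for Kcna1, Kcna4, Kcnd3, Kcnf1 and Kcnip1 that of pair 2. Probe sets of a gene share its RNA and are not replicates.

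Dim members spread widely in pair 1 and little in pair 2. The median size of the difference was 0.65 in pair 1 and 0.07 in pair 2 for the 58 members below the filter, and 0.27 and 0.11 for the 106 above it. Over all probe sets it was 0.47 and 0.06 below and 0.23 and 0.12 above the filter. Of the 81 genes, 20 had no probe set above the filter, namely Kcna5, Kcnab3, Kcne1, Kcne3, Kcne4, Kcnh5, Kcnh7, Kcnj1, Kcnj2, Kcnj5, Kcnj14, Kcnj15, Kcnk4, Kcnk7, Kcnmb1, Kcnn3, Kcnn4, Kcnq1, Kcnv2 and the antisense transcript Kcnmb4os1. Kcnq1 1449464_at, for example, had 22.5 and 38.0 on the knockout-labelled arrays against 167 and 39.7 on the control-labelled ones.

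**Figure D5:**
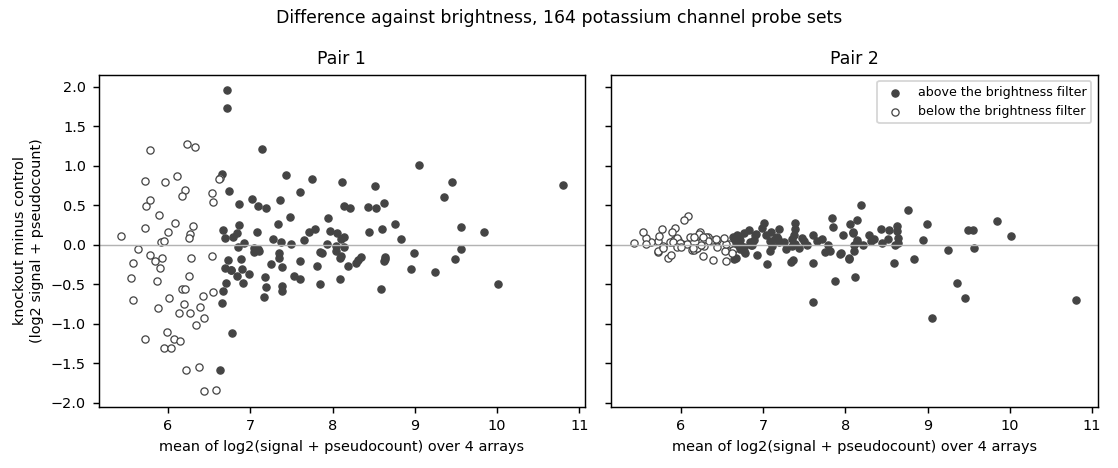
Difference of all 164 potassium channel probe sets (the knockout-labelled array minus the control-labelled one, log2 scale) against their mean brightness, in pair 1 (left) and pair 2 (right). Open points lie below the filter. In pair 1 the dim probe sets scatter widely in both directions (median size 0.65), and in pair 2 they lie near 0 (median size 0.07).

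Genes that handle potassium or hold its channels in place gave no call either. Of 29 such genes 21 were measured, and 0 passed limma's test in either direction. Their medians were -0.06 and 0.07, and 9 of 21 had a negative difference in pair 1 with a positive one in pair 2, against 30.5% of all probe sets. The widest in pair 1 was Cntnap2, an axonal adhesion molecule that clusters Kcna channels, with 2325 and 1010 on the knockout-labelled arrays against 4288 and 632 on the control-labelled ones (-0.87 and 0.65). Abcc9, a receptor subunit of ATP-sensitive channels, was at -0.86 and 0.06, and Adam22, a Kcna channel partner, at -0.56 and 0.45. In pair 2 Slc12a2, a sodium-potassium-chloride importer, was at -0.32 and 0.57, and Slc12a5, the neuronal potassium-chloride exporter, had 2980 and 473 against 2155 and 683 (0.46 and -0.50).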

How the data were processed

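RNA of postnatal day 2 hippocampi was measured on 4 Affymetrix arrays. The authors deposited linear intensity values, and the submitters' processing notes name MAS5. Its version and scaling target are not given in the sources used here. The scaling was kept. Symbols came from the platform annotation, and a probe set with several was not used. All 164 members matched RefSeq by Entrez ID, which changed 0 symbols. The members and lists were chosen with earlier results of these data known.

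Signals were transformed as log2(signal + 32.56). The 27022 probe sets whose mean lay above the 40th percentile entered limma 3.58.1 in R 4.3.3 (lmFit, eBayes with trend), knockout minus control, with Benjamini-Hochberg adjustment over all of them at 0.05. The labels do not say what a replicate number marks, so the fit had no block, and one with the replicate block was an alternative. Across probe sets, the deviations of the knockout-labelled and control-labelled arrays of 1 number correlated at 0.837, which includes the difference in scale. Without the block each SE was that of the mean-variance trend, since the prior degrees of freedom were infinite. On simulated data the fits were checked only for returning a median difference near the planted one, not for how many changes they could call.

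Named were the 5 probe sets per direction with the smallest p in either fit, those over 2-fold apart in a pair, the brightest of each subfamily, genes with 3 or more probe sets, Zbtb20, and 3 partner genes per pair. Others were chosen after their values were seen. The number of arrays limits the precision.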

Additional observations from a re-analysis of the deposited data

How the results depend on the processing

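In limma's fit 0 potassium channel probe sets were called under any alternative, including without trend, robust, and without each array in turn, and 0 were called with the replicate block. Where a group was left with 1 array, its spread was taken from the other group. In pair 1, 6 of 106 probe sets were over 2-fold apart, against 4.37% of all. With no filter the count was 20 of 164, against 10.1% of all. It was 1 of 55 with a filter at the 60th percentile (1.68% of all) and 3 of 61 with 1 probe set per gene (4.07%). These counts differ by construction of the sets. With a floor of 1 in place of the pseudocount the count was 8 of 105, against 6.99% of all. With the pseudocount at the 40th percentile it was 4 of 106, against 2.58%. The count in pair 2 was 0 of 106, against 0.518% of all. It was 1 of 105 with a floor of 1 in place of the pseudocount (1.05% of all) and with quantile normalization (1.54%). In both cases this was Kcne1l, at -1.06 and -1.29. The pair 1 median of -0.03 was 0.054 with quantile normalization, and the cause was not tested. The count of 4 over 1.5-fold higher in pair 1 and lower in pair 2 was 3 with the pseudocount at the 40th percentile and 2 with 1 probe set per gene, and stayed 4 under the 6 other alternatives. Opposite signs held for 31 of 55 probe sets (56.4%) with the stricter filter, against 53.1% of all. With 1 per gene they held for 30 of 61 (49.2%), against 53.5% of all. In the main setting this was 59 of 106 (55.7%), against 53.8%, so members were not above the share of all with 1 per gene. The pair 1 median was also above 0 with the stricter filter (0.0070) and with 1 per gene (0.02). The Kcnd2 values kept both signs under each alternative pseudocount or scaling. They lay between 0.73 and 1.09 in pair 1 and between -0.98 and -0.63 in pair 2. The other filters and the choice of 1 probe set per gene leave these values unchanged by construction. Kcnd2 1422834_at was under 2-fold in pair 1 with the higher pseudocount (0.95), quantile normalization (0.92) and 1 common trimmed mean (0.95). Only 2 arrays per group, signals near the lower end of the range and, without the block, the gap in scale limit what could be called.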

Other observations

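For the 13 potassium channel probe sets among the 9007 brightest probe sets above the filter, the differences of pair 1 and pair 2 correlated at Pearson's r = -0.863 (Spearman's rho = -0.621), a description across probe sets of the same 4 arrays. Without the 3 Kcnd2 probe sets r was -0.536 and rho -0.176 over 10 probe sets. Over all those 9007 probe sets r was -0.263 and rho -0.108. Over all 106 potassium channel probe sets r was -0.279, against -0.207 over all 27022.

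The RefSeq table held 93 promoters for 69 of the potassium channel genes. In the 250 bases before the start the GC box GGGCGG, on either strand, occurred in 42 of them (45.2%), against 32.7% of all promoters, and TATAAA in 2 (2.15%), against 12.4%. Their median GC content was 58.8%, against 52.4%. Alternative promoters of a gene were counted singly, and no factor's binding was measured.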
